A study of Mus musculus with 8 samples.

Results

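The autophagy genes described here are 38 mouse genes whose products start autophagosome formation, attach ATG8 proteins to the growing membrane and select cargo for it. They were taken from the normalized count table by gene symbol, from a list written with earlier results of these data known and not by their values. All 38 were among the 14506 genes listed, and all 38 reached the mean of 10 normalized reads that 11174 genes reached and that was required for a test.

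The livers came from 4 *Rragc* +/+ mice and 4 *Rragc* S74N/+ mice, which carry on 1 allele a serine-to-asparagine change of RagC, the product of *Rragc*. The change is in the germline, so every cell type of the liver carries it, and RagC is a GTPase that recruits the kinase complex mTORC1 to lysosomes when nutrients are plentiful. Ages in the labels are 3 months (*Rragc* +/+ replicates 1 to 3, *Rragc* S74N/+ replicates 1 and 2), 2.5 months (*Rragc* +/+ replicate 4, *Rragc* S74N/+ replicate 3) and 2 months (*Rragc* S74N/+ replicate 4). The study asked how a lasting nutrient signal to mTORC1 changes tissues, and sequenced the 3′ ends of messenger RNA from whole tissue. The labels give no sex, litter, feeding state or hour of collection. They list each liver as a separate sample, so p-values measure the spread between these 8 samples.

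Autophagy delivers cytoplasm to lysosomes. When mTORC1 is inactive, the ULK kinase complex is released to switch on a phosphatidylinositol 3-kinase complex on membranes. A pair of ubiquitin-like conjugation reactions then anchor ATG8 proteins (LC3 and GABARAP) in the forming membrane, and receptors such as p62 tie cargo to them. mTORC1 also holds the transcription factors TFEB and TFE3 in the cytoplasm, and these otherwise raise transcription of lysosomal and autophagy genes. The liver uses autophagy to release amino acids and lipids during fasting.

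No autophagy gene passed the test for a difference between the genotypes. Of the 38 members, 0 passed limma's Benjamini-Hochberg adjusted p of 0.05, against 0.00895% (1 gene) of all 11174 genes tested. An unadjusted limma p under 0.05 was reached by 0 of 38 members and by 5.17% of all genes (578), and 0 of 38 members had genotypes that did not overlap, against 2.94% of all genes (328). Tests on recovered reads gave the same member counts, with 0 of 38 past the threshold and 0 of 38 with an unadjusted p under 0.05 in both edgeR and DESeq2. The log2 fold change, *Rragc* S74N/+ minus *Rragc* +/+, was above 0 for 19 of 38 members and below 0 for 19, while 51.3% of all genes lay above 0.

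The differences were mostly smaller than the spread between livers of a genotype. The fold changes ran from -0.51 (*Optn*) to 0.77 (*Atg10*), with a median of -0.0060, against 0.012 over all genes tested. Their median size without sign was 0.21 in the members and 0.26 in all tested genes. The SD within a genotype, on the log2(normalized count + 1) scale, had a median of 0.36 in the members and 0.45 in all tested genes. Standard errors were 0.18 to 0.51 with a median of 0.27. The 95% interval of the fold change lay between -1 and 1 for 27 members, so that a log2 difference of 1 in either direction lay outside it. For the other 11, *Ulk1*, *Wipi1*, *Atg3*, *Atg4a*, *Atg4c*, *Atg10*, *Atg16l1*, *Nbr1*, *Optn*, *Calcoco1* and *Vmp1*, the interval reached 1 or -1.

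The mean log2 level of all 38 members was 7.28 ± 0.10 for *Rragc* +/+ and 7.33 ± 0.06 for *Rragc* S74N/+ (SD, n = 4 each). The livers held 7.25, 7.34, 7.37 and 7.15 across *Rragc* +/+ and 7.41, 7.29, 7.32 and 7.29 across *Rragc* S74N/+, replicates 1 to 4 in turn here and below. The ranges overlapped, and the mean difference of 0.05 compared with 0.03 for the same mean over all genes tested. Among the 3-month-old mice alone the difference was 0.03. In whole tissue, fewer cells of a type and less RNA per cell cannot be told apart.

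Most members were more abundant than the median gene. Since the kit reads 1 tag from each transcript's 3′ end, levels compare transcripts without a length correction. The median normalized count was 149 in the members and 78.7 in all tested genes, and 28 of 38 members lay above the median gene. *Gabarapl1* and *Sqstm1*, the 2 most abundant, averaged over 1000 normalized reads, while 6 members (*Atg10*, *Atg4c*, *Atg4a*, *Atg2b*, *Pik3c3* and *Wdr45*) averaged under 50.

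**Figure D1:**
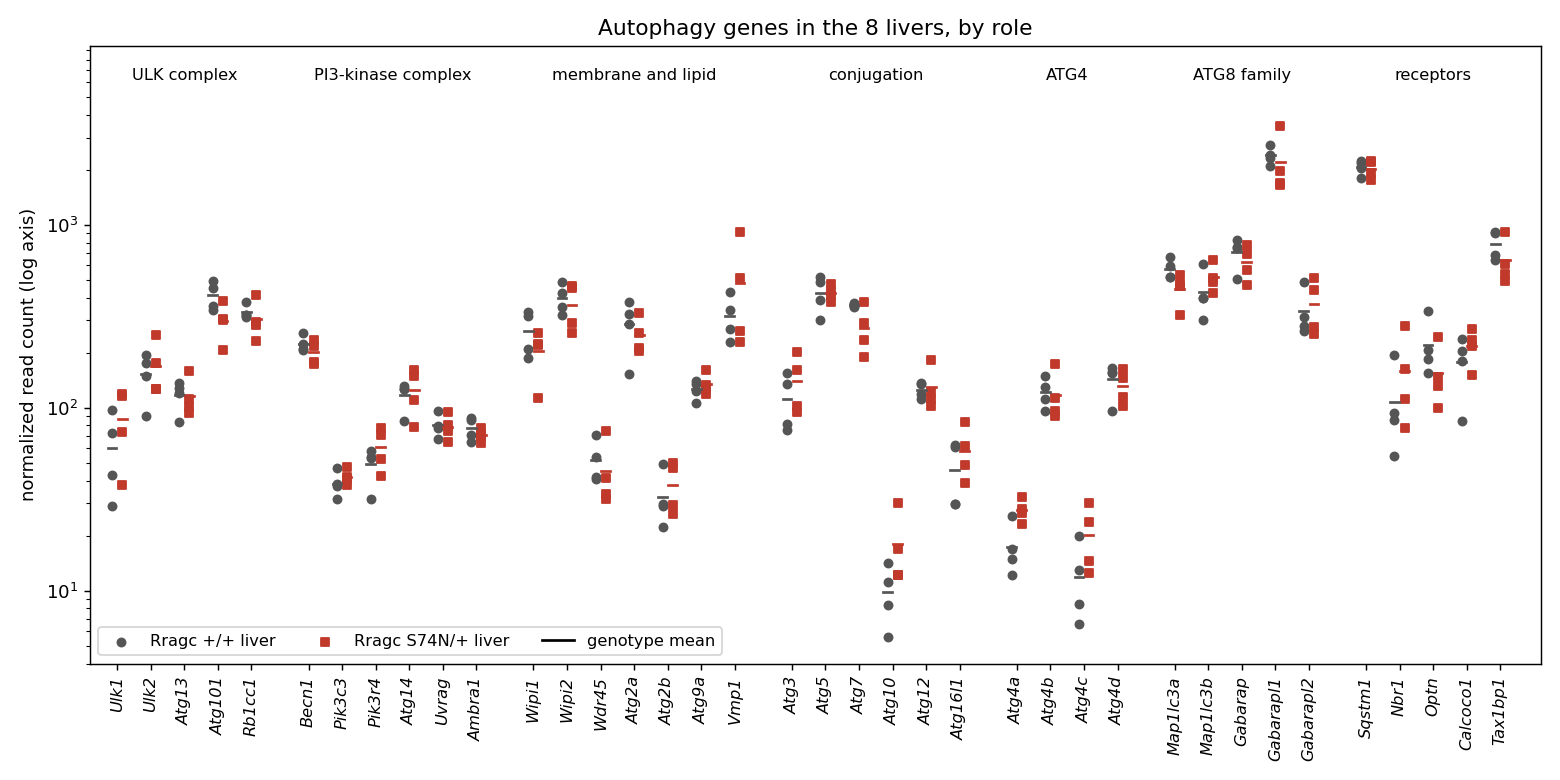
Normalized read counts (log axis) of the 38 autophagy genes, grouped by role, in 4 *Rragc* +/+ livers (grey circles) and 4 *Rragc* S74N/+ livers (red squares), with a line at each genotype mean. For every gene the 2 sets of points overlap, and *Gabarapl1* and *Sqstm1* lie highest.

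*Rragc* itself (chromosome 4, 123917446 to 123936997, forward strand of GRCm38) was read in every liver. Its normalized count was 77.4, 83.2, 63.7 and 112 across *Rragc* +/+ and 71.6, 69.3, 84.7 and 80.8 across *Rragc* S74N/+ livers, with 45 to 120 reads behind the values. The ranges overlapped, with a log2 fold change of -0.11 (SE 0.25) and a limma adjusted p of 0.931. A count by gene does not separate the alleles, so it does not check the genotype.

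The genes of the ULK complex, the kinase that mTORC1 restrains, had 2 fold changes above 0 and 3 below. *Ulk1* (chromosome 5, 110784488 to 110810097, reverse strand) encodes the kinase. Its normalized count was 42.9, 72.9, 97.6 and 28.96 across *Rragc* +/+ and 117, 73.8, 37.9 and 119 across *Rragc* S74N/+ livers. The 2 *Rragc* S74N/+ livers at the top, replicates 1 and 4, stood above every *Rragc* +/+ liver, and replicate 3 lay among the lowest, with a log2 fold change of 0.52 (SE 0.43). *Atg101* (chromosome 15, 101284272 to 101290945, forward strand) encodes a subunit that steadies ATG13 in the complex. It was counted at 493, 342, 362 and 450.3 across *Rragc* +/+ and 302, 307, 384 and 206 across *Rragc* S74N/+ livers. Of the *Rragc* S74N/+ livers 3 lay below every *Rragc* +/+ liver and replicate 3 lay among them, with a log2 fold change of -0.47 (SE 0.23). The related kinase *Ulk2* was at 153 ± 45.2 in *Rragc* +/+ against 169.8 ± 58.6 in *Rragc* S74N/+ (mean ± SD, n = 4, as for all such values here), and the adaptor *Atg13* at 117 ± 23.8 in *Rragc* +/+ against 116 ± 29.03 in *Rragc* S74N/+. *Rb1cc1*, which encodes the scaffold FIP200, was at 333 ± 29.7 in *Rragc* +/+ against 306 ± 76.9 in *Rragc* S74N/+. Over the 5 genes the mean log2 level was 7.38 ± 0.25 for *Rragc* +/+ and 7.39 ± 0.19 for *Rragc* S74N/+, a difference well inside either SD.

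The class III phosphatidylinositol 3-kinase complex, which makes the lipid that marks the site of membrane growth, had the narrowest span of fold changes among the 7 role groups. Its 6 members ran from -0.16 to 0.29, 3 above and 3 below 0. *Becn1*, encoding the scaffold Beclin 1, was at 224 ± 23.3 in *Rragc* +/+ against 201 ± 29.6 in *Rragc* S74N/+. The lipid kinase gene *Pik3c3* was at 38.5 ± 6.16 in *Rragc* +/+ against 42.05 ± 4.14 in *Rragc* S74N/+, and its partner *Pik3r4* at 49.3 ± 11.9 in *Rragc* +/+ against 60.7 ± 16.2 in *Rragc* S74N/+. *Atg14* and *Uvrag* encode alternative subunits, for autophagosome formation and for endosomes. Their fold changes lay near 0, with *Atg14* at 117 ± 21.5 in *Rragc* +/+ against 125 ± 37.5 in *Rragc* S74N/+ and *Uvrag* at 80.1 ± 12.03 in *Rragc* +/+ against 78.9 ± 12.5 in *Rragc* S74N/+. The Beclin 1 regulator *Ambra1* was at 77.5 ± 11.1 in *Rragc* +/+ against 70.8 ± 5.70 in *Rragc* S74N/+. On average over the group, the log2 level was 6.36 ± 0.13 for *Rragc* +/+ and 6.39 ± 0.07 for *Rragc* S74N/+.

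Genes for the phagophore membrane and its lipid supply had 3 of 7 fold changes above 0 and 4 below. *Wipi1* (chromosome 11, 109573331 to 109611967, reverse strand) encodes a reader of that lipid. Its count was 332, 210.4, 188 and 316 across *Rragc* +/+ and 219, 224, 256 and 113 across *Rragc* S74N/+ livers. Only *Rragc* S74N/+ replicate 4 fell below all *Rragc* +/+ livers, and the log2 fold change of -0.38 (SE 0.29) was within the spread. *Wipi2*, another reader that recruits the conjugation machinery, was at 396 ± 73.7 in *Rragc* +/+ against 364 ± 107 in *Rragc* S74N/+, and *Wdr45* at 52.1 ± 13.998 in *Rragc* +/+ against 45.3 ± 19.8 in *Rragc* S74N/+. The lipid transfer genes *Atg2a* and *Atg2b* were at 286 ± 96.5 in *Rragc* +/+ against 251 ± 57.2 in *Rragc* S74N/+ and at 32.6 ± 11.7 in *Rragc* +/+ against 38.01 ± 11.998 in *Rragc* S74N/+, respectively. *Atg9a*, encoding a membrane scramblase, was at 126 ± 15.3 in *Rragc* +/+ against 135 ± 18.8 in *Rragc* S74N/+. *Vmp1*, encoding an endoplasmic reticulum protein, was at 317 ± 89.6 in *Rragc* +/+ against 481 ± 319 in *Rragc* S74N/+. The SD of *Vmp1* in *Rragc* S74N/+ came from replicate 1, at 919, beside 228 in replicate 3. An exon of *Vmp1* overlaps the microRNA gene *Mir21a* on the same strand in the annotation. Exons of *Atg9a* and *Wdr45* overlap the predicted genes *Gm29253* and *Gm45208*, so reads in these overlaps may be missing from the counts. Over these 7 genes the log2 level averaged 7.24 ± 0.14 for *Rragc* +/+ and 7.21 ± 0.20 for *Rragc* S74N/+.

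The ubiquitin-like conjugation genes held both a gene near the bottom and the gene at the top of the fold changes. *Atg7* (chromosome 6, 114643097 to 114860614, forward strand) encodes the single E1-like enzyme of both reactions. Its count was 355, 376, 359 and 367 across *Rragc* +/+ and 236, 291, 377 and 189 across *Rragc* S74N/+ livers. The *Rragc* +/+ livers were close together, while 3 *Rragc* S74N/+ livers lay below all of them and replicate 3 lay level with the highest. The log2 fold change of -0.46 (SE 0.23) had a 95% interval from -0.95 to 0.03. *Atg10* (chromosome 13, 90935356 to 91223968, reverse strand) encodes the E2-like enzyme that joins ATG12 to ATG5. It was the least abundant member, at 8.39, 5.61, 14.1 and 11.2 across *Rragc* +/+ and 30.3, 16.9, 12.3 and 12.2 across *Rragc* S74N/+ livers, from 6 to 33 reads. The high value was *Rragc* S74N/+ replicate 1, and 2 of the other *Rragc* S74N/+ livers lay inside the *Rragc* +/+ range, with a log2 fold change of 0.77 (SE 0.51). *Atg3*, the E2-like enzyme for the ATG8 proteins, was at 112 ± 39.5 in *Rragc* +/+ against 139.9 ± 50.4 in *Rragc* S74N/+. *Atg5* was at 425 ± 98.8 in *Rragc* +/+ against 424 ± 41.8 in *Rragc* S74N/+, and its partner *Atg12* at 126 ± 12.3 in *Rragc* +/+ against 129.6 ± 36.5 in *Rragc* S74N/+. *Atg16l1*, which places the conjugate on the membrane, was at 45.7 ± 18.3 in *Rragc* +/+ against 58.4 ± 19.4 in *Rragc* S74N/+. These 6 genes averaged a log2 level of 6.63 ± 0.26 for *Rragc* +/+ and 6.80 ± 0.10 for *Rragc* S74N/+.

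The ATG4 proteases, which prime ATG8 proteins and later cut them off the lipid, had the largest difference of the 7 role groups, 0.30 in mean log2 level, and it came from the 2 scarce genes. *Atg4a* (chromosome X, 140956907 to 141164270, forward strand) was counted at 12.1, 16.8, 25.5 and 14.9 across *Rragc* +/+ and 26.6, 23.1, 27.9 and 32.6 across *Rragc* S74N/+ livers. Of the *Rragc* S74N/+ livers, 3 lay above all *Rragc* +/+ livers and replicate 2 lay below *Rragc* +/+ replicate 3, with a log2 fold change of 0.68 (SE 0.37). *Atg4c* (chromosome 4, 99193934 to 99259787, forward strand) was at 13.1, 8.42, 19.8 and 6.54 across *Rragc* +/+ and 30.3, 12.4, 14.5 and 23.7 across *Rragc* S74N/+ livers. Here *Rragc* S74N/+ replicates 1 and 4 lay above every *Rragc* +/+ liver and the other 2 lay among them, with a log2 fold change of 0.74 (SE 0.50). These values rest on 13 to 40 reads for *Atg4a* and 7 to 33 for *Atg4c*. The more abundant *Atg4b* and *Atg4d* were at 122 ± 23.4 in *Rragc* +/+ against 118 ± 37.9 in *Rragc* S74N/+ and at 143 ± 31.8 in *Rragc* +/+ against 131 ± 27.8 in *Rragc* S74N/+, with fold changes of -0.08 and -0.12. The group's mean log2 level was 5.45 ± 0.14 for *Rragc* +/+ and 5.75 ± 0.13 for *Rragc* S74N/+. The livers held 5.51, 5.45, 5.58 and 5.26 across *Rragc* +/+ and 5.74, 5.59, 5.90 and 5.78 across *Rragc* S74N/+, so that every *Rragc* S74N/+ liver lay above every *Rragc* +/+ liver, the nearest pair by 0.01. A score over 4 chosen genes was given no test, and with only *Atg4b* and *Atg4d*, the members over a mean of 50, the difference was -0.10. In 3-month-old mice alone, the difference over all 4 genes was 0.15. The mean levels of the other role groups overlapped between the genotypes.

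The ATG8 family gives the proteins that are anchored in the membrane. *Map1lc3a* (chromosome 2, 155276297 to 155278073, forward strand) encodes LC3A. It was counted at 518, 594, 518 and 664 across *Rragc* +/+ and 462, 475, 530.4 and 323 across *Rragc* S74N/+ livers. The *Rragc* S74N/+ livers other than replicate 3 lay below every *Rragc* +/+ liver, with a log2 fold change of -0.37 (SE 0.21). *Map1lc3b*, encoding LC3B, had the opposite sign (0.31), at 428 ± 132 in *Rragc* +/+ against 518 ± 93.02 in *Rragc* S74N/+. The GABARAP subfamily was led by *Gabarapl1*, at 2396 ± 264 in *Rragc* +/+ against 2194 ± 858 in *Rragc* S74N/+. *Gabarap* was at 710.1 ± 139.7 in *Rragc* +/+ against 626 ± 136 in *Rragc* S74N/+, and *Gabarapl2* at 336 ± 103 in *Rragc* +/+ against 370.4 ± 126 in *Rragc* S74N/+. The mean log2 level of the 5 genes was 9.38 ± 0.23 for *Rragc* +/+ and 9.31 ± 0.09 for *Rragc* S74N/+. The genes are related in sequence and reads with up to 20 hits were allowed in alignment, so the split of reads among them depends on the authors' counting.

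*Gabarapl1* held the largest share of the ATG8 family message in every liver. Its share of the family's summed normalized count was 54.03% ± 2.65 in *Rragc* +/+ and 51.6% ± 11.4 in *Rragc* S74N/+ livers. *Map1lc3a* held 13.04% ± 2.24 in *Rragc* +/+ and 10.8% ± 1.79 in *Rragc* S74N/+, and *Map1lc3b* 9.49% ± 1.76 in *Rragc* +/+ and 12.8% ± 3.58 in *Rragc* S74N/+. *Gabarap* held 15.97% ± 2.56 in *Rragc* +/+ and 15.6% ± 4.74 in *Rragc* S74N/+, and *Gabarapl2* 7.46% ± 1.36 in *Rragc* +/+ and 9.23% ± 3.79 in *Rragc* S74N/+. The shares varied more among *Rragc* S74N/+ than among *Rragc* +/+ livers for *Gabarapl1*, from 42.1% in replicate 1 to 67.4% in replicate 3. The ranges overlapped for all 5 genes.

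**Figure D2:**
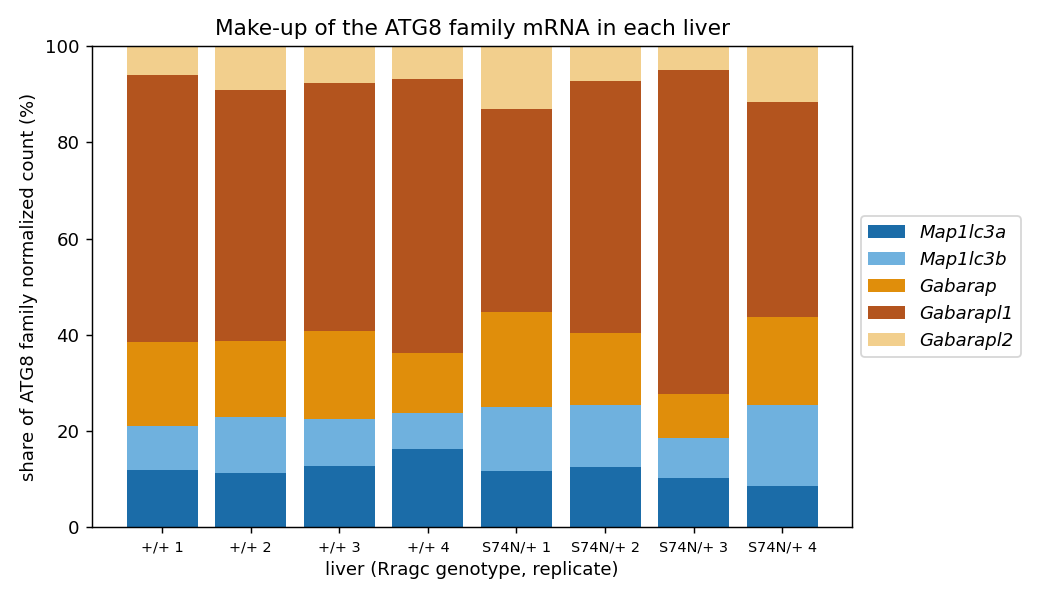
Stacked bars of the share (%) of each ATG8 family gene in the family's summed normalized count, 1 bar per liver. *Gabarapl1* is the largest part of every bar, from 42.1% to 67.4%.

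Among the cargo receptors, *Sqstm1* had the smallest spread of all 38 members, an SD of 0.15 on the log2 scale within a genotype. *Sqstm1* encodes p62, which binds ubiquitin and LC3, and was at 2061 ± 186 in *Rragc* +/+ against 2024 ± 226 in *Rragc* S74N/+, with a fold change of -0.03 and an interval from -0.41 to 0.36. *Nbr1* (chromosome 11, 101552149 to 101581951, forward strand) encodes a receptor that works with p62. Its count was 93.2, 86.04, 195 and 54.2 across *Rragc* +/+ and 163, 111, 78.01 and 281 across *Rragc* S74N/+ livers. *Rragc* S74N/+ replicate 4 was the highest liver and *Rragc* +/+ replicate 4 the lowest, with *Rragc* +/+ replicate 3 above 3 of the *Rragc* S74N/+ livers, with a log2 fold change of 0.55 (SE 0.42). *Optn* (chromosome 2, 5020642 to 5064051, reverse strand) encodes optineurin, a receptor for mitochondria and bacteria. It was counted at 156, 206, 184 and 336 across *Rragc* +/+ and 132, 148, 243 and 99.5 across *Rragc* S74N/+ livers. *Rragc* +/+ replicate 4 was highest, and 3 *Rragc* S74N/+ livers lay below every *Rragc* +/+ liver while replicate 3 was second highest, with a log2 fold change of -0.51 (SE 0.31). *Tax1bp1*, a further ubiquitin-binding receptor, was at 787 ± 142 in *Rragc* +/+ against 638 ± 188 in *Rragc* S74N/+, and *Calcoco1*, encoding a receptor for endoplasmic reticulum, at 177 ± 65.8 in *Rragc* +/+ against 218 ± 49.9 in *Rragc* S74N/+. The receptors averaged a log2 level of 8.46 ± 0.15 for *Rragc* +/+ and 8.47 ± 0.04 for *Rragc* S74N/+.

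For the 10 genes given liver by liver above, the 5 with the lowest and the 5 with the highest fold change, limma's adjusted p was 0.846 in each case.

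**Figure D3:**
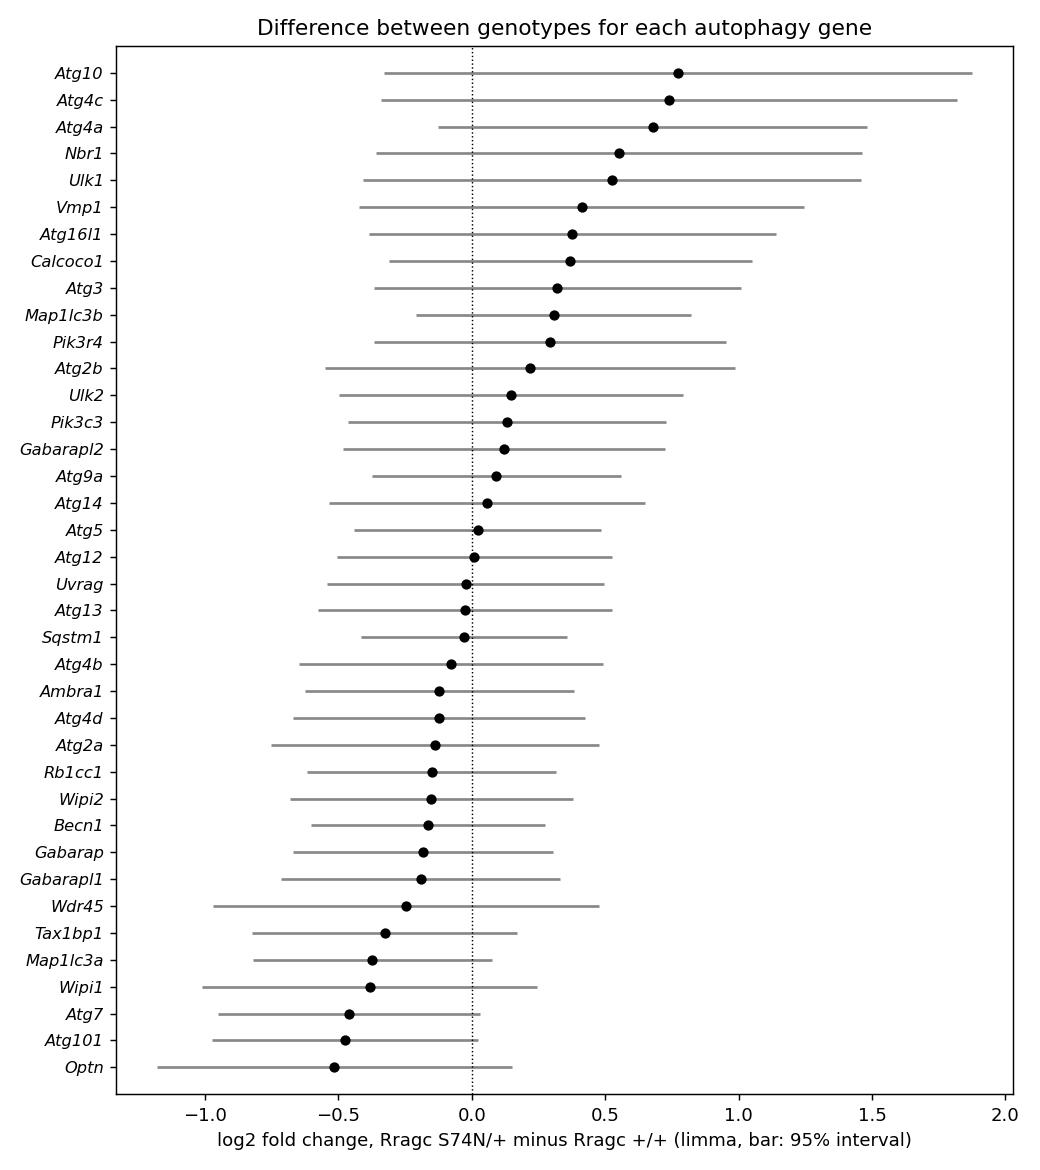
Log2 fold change of each autophagy gene, *Rragc* S74N/+ minus *Rragc* +/+ (points), with its 95% interval from limma (bars), in order of size. All 38 bars cross 0, from *Optn* at -0.51 to *Atg10* at 0.77.

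The members that TFEB is listed to regulate were described apart, because TFEB lies downstream of RagC and mTORC1. Of the TFEB target lists that the study scored, 9 members were in at least 1: *Gabarap*, *Sqstm1*, *Wipi2*, *Atg5*, *Becn1*, *Gabarapl1*, *Uvrag*, *Wipi1* and *Optn*. The fold change was below 0 for 8 of the 9, with *Atg5* at 0.02, and their median was -0.16. Of the other 29 members 18 were above 0, with a median of 0.12. None of the 9 passed the test, and a list chosen with results known gets no test of its own. Their mean log2 level was 8.76, 8.72, 8.70 and 8.87 across *Rragc* +/+ and 8.49, 8.63, 8.84 and 8.37 across *Rragc* S74N/+ livers. *Rragc* S74N/+ replicates 1, 2 and 4 lay below every *Rragc* +/+ liver and replicate 3 lay between *Rragc* +/+ replicates 1 and 4. The 2 lowest livers, *Rragc* S74N/+ replicates 4 and 1, and the 2 highest, *Rragc* +/+ replicate 4 and *Rragc* S74N/+ replicate 3, also stand at the 2 ends of the first principal component of all 38 members. The 9 are among those 38, and *Optn* and *Wipi1* had the largest weights toward its lower end, so part of this match is built in. The count below 0 and the median of the 9 were 6 and -0.09 without *Rragc* S74N/+ replicate 4, 7 and -0.08 without *Rragc* S74N/+ replicate 1, and 9 and -0.24 without *Rragc* S74N/+ replicate 3. The part of that axis in the lower values was not tested.

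TFEB and TFE3 bind the E-box CACGTG, often preceded by T. The windows from 250 bases before to 50 after the RefSeq starts (GRCm38.p6) were searched for CACGTG, which reads the same on both strands, and for TCACGTG on either strand, all of which also count as CACGTG. Of 32 members with a window, 4 held CACGTG (12.5%), against 11.5% of 10236 listed genes, and 3 held TCACGTG (9.38%), against 6.97%. The 4 are shown because they are the members whose promoters carry the letters TFEB reads, with CACGTG in capitals, 5′ to 3′ on the gene's strand. Positions count from -1, the base before the start.
*Atg3*, chr16:45158705-45158793, forward strand, E-boxes from -94 and -71: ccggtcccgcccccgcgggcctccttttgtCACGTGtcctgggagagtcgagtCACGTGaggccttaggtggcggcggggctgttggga
*Atg5*, chr10:44268295-44268338, forward strand, E-box from -14: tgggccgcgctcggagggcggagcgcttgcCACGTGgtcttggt
*Atg7*, chr6:114670934-114670999, forward strand, E-box from -132: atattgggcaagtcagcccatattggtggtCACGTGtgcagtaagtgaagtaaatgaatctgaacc
*Atg14*, chr14:47568430-47568465, reverse strand, E-box from -1: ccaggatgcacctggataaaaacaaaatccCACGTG

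The 4 genes with the E-box did not share a direction. Their fold changes were -0.46 for *Atg7*, 0.02 for *Atg5*, 0.06 for *Atg14* and 0.32 for *Atg3*. TCACGTG stood in *Atg3*, *Atg7* and *Atg14*, in *Atg14* on the opposite strand only, through a base past the stretch shown. Of the 9 members in a TFEB target list, *Atg5* alone had the 6 letters in its window. The *Atg3*, *Atg7* and *Atg14* starts lie inside the span that GENCODE gives those genes, not at its end. No window was matched for *Rb1cc1*, *Becn1*, *Pik3c3*, *Atg12*, *Atg16l1* and *Map1lc3a*.

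The members did vary together from liver to liver, across the genotypes. A first principal component, the single axis that holds most of the variation, took 59.3% of the members' variance. Livers scored -2.80 (*Rragc* +/+ replicate 4), -1.69 (*Rragc* S74N/+ replicate 3), -1.41, -0.60, -0.15 (*Rragc* +/+ replicates 1 and 2 and *Rragc* S74N/+ replicate 2), 1.21 (*Rragc* +/+ replicate 3), 2.69 and 2.74 (*Rragc* S74N/+ replicates 1 and 4). *Ulk1*, *Nbr1*, *Vmp1*, *Atg4c* and *Atg3* had the largest weights toward the upper end, and *Optn*, *Wipi1*, *Atg2a*, *Atg101* and *Atg7* toward the lower end. The same axis computed on the other 11136 tested genes, where it took 39.8% of the variance, put the 8 livers in the same order. Both axes come from the same 8 libraries.

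The axis did not follow age in order. Both 2.5-month-old livers, 1 of each genotype, stood at its lower end, while the 2-month-old and a 3-month-old *Rragc* S74N/+ liver stood at the upper end. *Rragc* S74N/+ replicates 1 and 4 were the 2 lowest *Rragc* S74N/+ livers for 16 members and the 2 highest for 11. *Rragc* +/+ replicate 4 was the lowest of all 8 livers for 12 members, and *Rragc* S74N/+ replicate 1 was the highest for 9. A member's value in the highest liver was 2.08 times that in the lowest at the median, and 5.40 times for *Atg10*.

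Clock, fasting and hepatocyte genes also differed between the ends of this order, and the fasting genes between the genotypes as well. The mean log2 level of 7 clock genes that peak near dusk was 7.12 in *Rragc* +/+ replicate 4 and 7.43 in *Rragc* S74N/+ replicate 3, and between 5.32 and 6.22 in the other 6. The 4 dawn clock genes ranged from 6.69 to 7.50 in *Rragc* +/+ and 6.58 to 7.38 in *Rragc* S74N/+, lowest in the same 2 livers. Fasting-induced genes, 8 in number, ranged from 8.50 to 8.96 in *Rragc* +/+ and 8.92 to 9.78 in *Rragc* S74N/+, and feeding-induced genes, also 8, from 8.38 to 9.38 in *Rragc* +/+ and 8.57 to 9.39 in *Rragc* S74N/+. Fasting-induced genes were highest in *Rragc* S74N/+ replicates 1 and 4, at 9.78 and 9.73, and 3 of the 4 *Rragc* S74N/+ livers lay above every *Rragc* +/+ liver. Their mean level was 0.72 higher in *Rragc* S74N/+, with a median log2 fold change of 0.58, the largest difference of the 4 clock and feeding lists. The fold change was above 0 for 6 of the 8 and below 0 for 2, the lowest at -0.47. Of the 8, 3 had an unadjusted limma p under 0.05, against 5.17% of all genes, and none passed the adjusted threshold. These were *Igfbp1* (log2 fold change 2.04), which encodes a binder of insulin-like growth factors, *Cyp4a14* (1.99), a fatty acid hydroxylase gene, and *Pck1* (1.18), for a gluconeogenic enzyme, named after their values were seen. The feeding-induced genes were at 9.22, 8.38, 9.10 and 9.38 across *Rragc* +/+ and 9.39, 8.80, 8.57 and 9.31 across *Rragc* S74N/+ livers. Hepatocyte markers were highest in the 3 livers at the upper end, at 14.07 (*Rragc* +/+ replicate 3), 14.15 and 14.58 (*Rragc* S74N/+ replicates 1 and 4), against 13.45 to 13.60 in the other 5. The part of time of day, feeding or hepatocyte content in the members' values was not tested.

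**Figure D4:**
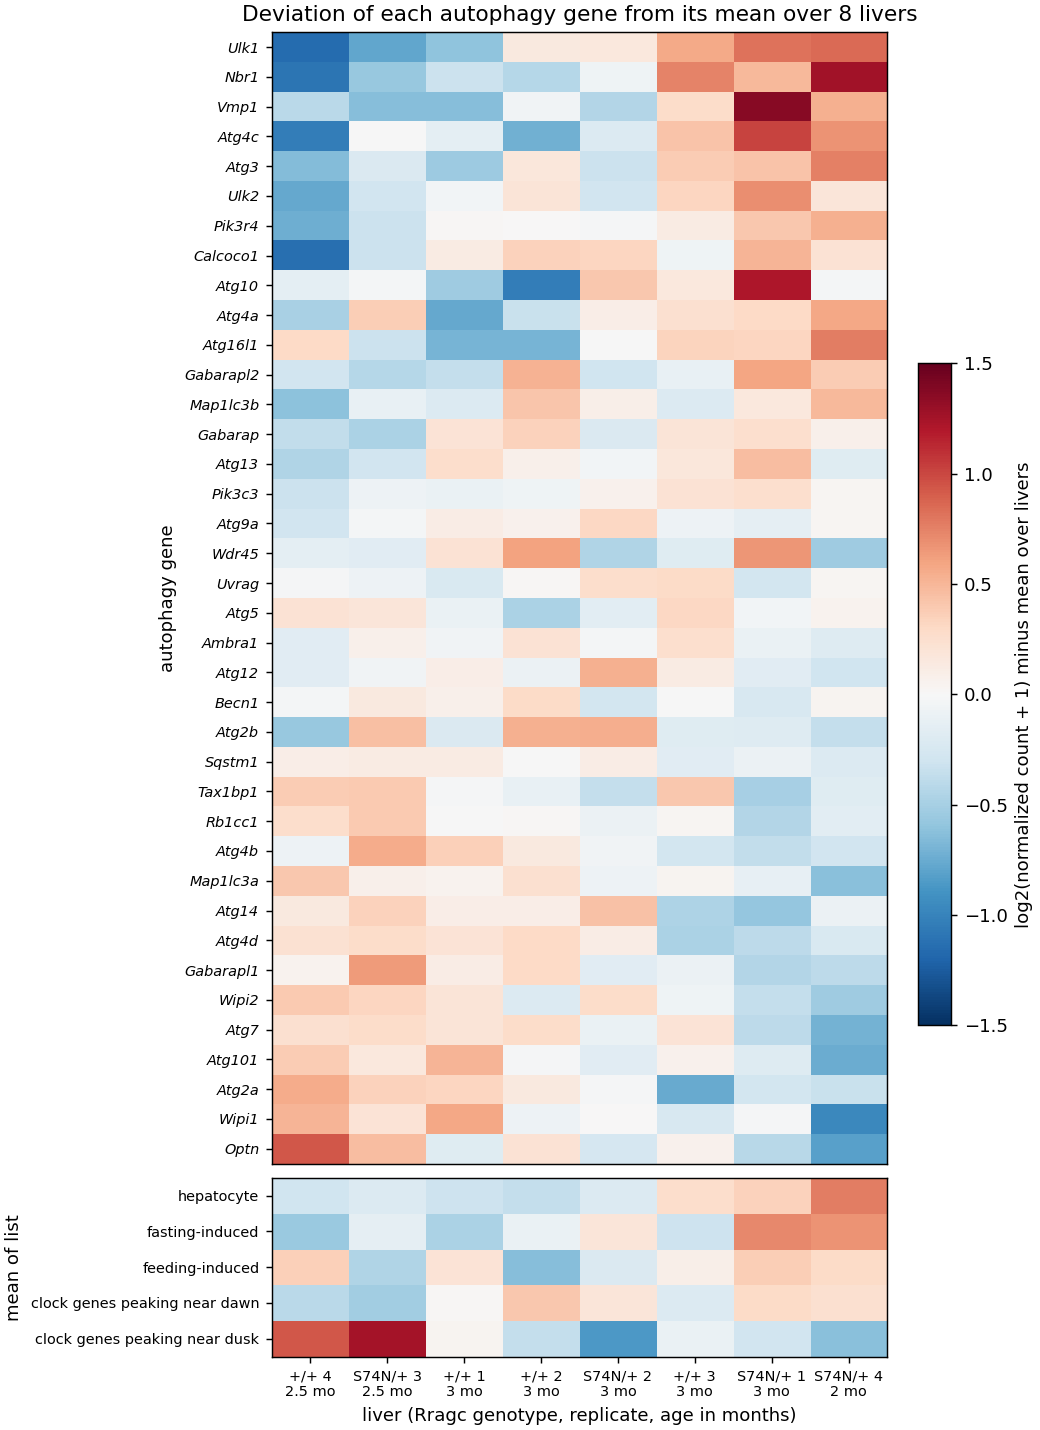
Heat map of each member's log2(normalized count + 1) minus its mean over 8 livers (red higher, blue lower), with livers in the order of the axis computed on the other 11136 genes and members in the order of their weight. Below, the same for the means of 5 gene lists, where the dusk clock genes are highest in the 2 livers aged 2.5 months at the left.

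The count of members with a low p changed when single livers were left out, most without *Rragc* S74N/+ replicate 3. Without that liver, 7 of 38 members (18.4%) had an unadjusted limma p under 0.05, against 15.1% of all genes (1690). *Atg101*, *Atg7*, *Gabarapl1*, *Map1lc3a*, *Optn* and *Tax1bp1* were then lower in *Rragc* S74N/+ livers and *Ulk1* was higher, with fold changes of -0.61, -0.63, -0.43, -0.46, -0.75, -0.51 and 0.87. None passed the adjusted threshold, and limma's smallest adjusted p among members was 0.260. The members' share was near that of all genes. The count was 2 without *Rragc* +/+ replicate 3 (*Atg4a* and *Nbr1*), 1 without *Rragc* +/+ replicate 2 (*Atg101*) and 0 without any of the other 5.

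The fold changes of the 10 members described liver by liver kept their sign whichever liver was left out, and 8 of them moved by more than 1.5 times. *Ulk1* ran from 0.23 without *Rragc* +/+ replicate 4 to 0.87 without *Rragc* S74N/+ replicate 3, and was also moved by *Rragc* +/+ replicate 3 (0.80 without it) and *Rragc* S74N/+ replicates 1 (0.34) and 4 (0.33). *Nbr1* ran from 0.22 without *Rragc* S74N/+ replicate 4 to 0.89 without *Rragc* +/+ replicate 3, and was 0.28 without *Rragc* +/+ replicate 4 and 0.83 without *Rragc* S74N/+ replicate 3. The kinase and the receptor, the 2 members with the largest weights on the axis, were thus moved by livers at both of its ends. Leaving out *Rragc* S74N/+ replicate 4 brought *Wipi1* to -0.12, *Atg101* to -0.31, *Atg7* to -0.30, *Map1lc3a* to -0.22 and *Optn* to -0.33. *Wipi1* was -0.25 without *Rragc* +/+ replicate 1, *Optn* -0.29 without *Rragc* +/+ replicate 4 and *Atg10* 0.50 without *Rragc* S74N/+ replicate 1. *Atg4a* and *Atg4c* moved by less, within 0.53 to 0.87 and 0.51 to 1.003.

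Neighbouring autophagy genes outside the 38 were read from 3 further lists, with 54 genes tested. Regulators of initiation had 13 of 19 fold changes above 0 and 6 below, with 2 unadjusted limma p under 0.05. *Bcl2l1*, encoding BCL-xL, which binds Beclin 1, was at 279, 281, 221 and 288 across *Rragc* +/+ and 163, 124, 242 and 118 across *Rragc* S74N/+ livers. Of the *Rragc* S74N/+ livers 3 lay below every *Rragc* +/+ liver, with a log2 fold change of -0.77 (SE 0.25). *Atg16l2*, a relative of *Atg16l1*, was at 43.8, 45.8, 55.2 and 55.1 across *Rragc* +/+ and 168, 78.2, 53.5 and 80.8 across *Rragc* S74N/+ livers, with a log2 fold change of 0.79 (SE 0.33). All but *Rragc* S74N/+ replicate 3 lay above every *Rragc* +/+ liver. The limma adjusted p was 0.846 for both. Genes for fusion with the lysosome had 6 of 17 above 0 and 11 below, with a median of -0.07, and 0 with an unadjusted limma p under 0.05. Organelle and cargo receptors had 16 of 18 above 0 and 2 below, with a median of 0.21, and again 0 with an unadjusted limma p under 0.05. Their mean log2 level was 7.34, 7.42, 7.59 and 7.09 across *Rragc* +/+ and 7.92, 7.31, 7.50 and 7.90 across *Rragc* S74N/+ livers, highest in the 2 livers at the upper end of the shared axis. Over the 3 lists 2 of 54 genes (3.70%) had an unadjusted p under 0.05, against the 5.17% of all genes.

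The tissue read as liver in every sample, and the mean level of each cell type marker list overlapped between the genotypes for all lists but 1. Hepatocyte markers, all 8 listed, led by *Alb*, had mean log2 levels of 13.45 to 14.07 in *Rragc* +/+ and 13.60 to 14.58 in *Rragc* S74N/+ livers. Kupffer cell markers ranged from 7.62 to 7.75 in *Rragc* +/+ and 7.69 to 8.23 in *Rragc* S74N/+, endothelial markers from 6.76 to 7.02 in *Rragc* +/+ and 6.57 to 7.42 in *Rragc* S74N/+ and stellate markers from 7.27 to 7.64 in *Rragc* +/+ and 7.33 to 7.75 in *Rragc* S74N/+. Single markers differed more than these means. An unadjusted limma p under 0.05 was reached by 2 of 10 Kupffer cell markers (*C1qc*, log2 fold change 1.03, and *Adgre1*, 0.80), 2 of 8 endothelial markers (*Lyve1*, 1.03, and *Pecam1*, 0.88) and 2 of 6 tested stellate markers (*Col1a1*, 0.96, and *Ecm1*, -0.65), against 5.17% of all genes. None passed the adjusted threshold, the other markers of these lists went both ways, and the 6 were named after their values were seen. Cholangiocyte markers ranged from 5.34 to 6.72 in *Rragc* +/+ and 5.26 to 6.87 in *Rragc* S74N/+ and neutrophil markers from 3.51 to 6.08 in *Rragc* +/+ and 3.73 to 5.39 in *Rragc* S74N/+, each on 2 tested genes. T cell (*Trac*) and B and plasma cell (*Ighm*) markers each had 1 tested gene, ranging from 1.52 to 4.49 in *Rragc* +/+ and 1.08 to 3.97 in *Rragc* S74N/+ and from 4.55 to 5.54 in *Rragc* +/+ and 4.85 to 5.96 in *Rragc* S74N/+. *Kap*, the only tested kidney marker, ranged from 6.11 to 7.36 in *Rragc* +/+ and 2.94 to 5.56 in *Rragc* S74N/+. Its genotypes did not overlap, as for 2.94% of all genes. The log2 fold change of *Kap* was -2.20 (SE 0.54), with an unadjusted limma p of 0.0013 and an adjusted p of 0.846. The other listed kidney markers, *Slc12a1*, *Slc34a1*, *Lrp2* and *Miox*, averaged 2.49 to 8.54 normalized reads, under the mean required for a test. What lies behind the *Kap* values was not tested. *Ly6g*, *Mpo* and *Elane* of the neutrophil list, *Cd8a* of the T cell list and *Umod* and *Aqp2* of the kidney list were not among the listed genes. The part of cell make-up in the members' values was not tested. The livers held 4313076 to 6632108 reads in listed genes, and *Rragc* +/+ replicate 3 had the fewest.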

How the data were processed

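RNA from whole livers of 4 *Rragc* +/+ and 4 *Rragc* S74N/+ mice was sequenced from its 3′ ends. Alignment by the authors used GRCm38, TopHat2 2.0.10, Bowtie 1.0.0 and SAMtools 0.1.19 (versions from the submitters' processing notes), with 3 mismatches and 20 multi hits allowed. HTSeq 0.6.1 counted reads by strand against GENCODE, and counts were divided by DESeq size factors. The deposited signal is thus a normalized read count for each gene in each liver. All values (100%) were whole multiples of 1 read's worth, within 0.001, so whole reads were recovered. These give 4313076 to 6632108 reads per liver and no depth beyond listed genes. Molecular identifiers are not mentioned for liver, so a read is not an independent molecule.

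Here limma 3.58.1 in R 4.3.3 (with a mean-variance trend) tested genotype on log2(normalized count + 1) for the 11174 genes averaging 10 or more, with Benjamini-Hochberg adjustment over all of them at 0.05. This scale understates changes of low genes. Alternatives were pseudocounts of 0.1 and 5, a filter at a mean of 50 or none, TMM and upper-quartile scaling, no trend, age as a term, 3-month-old mice alone, edgeR 4.0.16 and DESeq2 1.42.0 on recovered reads, and leaving out each liver. The fit was also run on simulated counts with known changes. These were drawn independently for each gene, without an axis shared between livers, so that run does not cover this feature of the data. Replicate numbers only name a liver. All 38 members are named, with values per liver for the 5 highest and 5 lowest fold changes, for members with an unadjusted p under 0.05 or no overlap, and for *Rragc*. Of other autophagy genes, those with an unadjusted p under 0.05 are named. The members, groups and lists were chosen with earlier results of these data known. Coordinates are from GENCODE M21 on GRCm38, a release next to the one counted against, and promoter sequences from RefSeq on GRCm38.p6.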

Additional observations from a re-analysis of the deposited data

Results flagged for a closer look

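Within a genotype, 1 liver stood far from the other 3 in 4 of 92 groups of 4 livers examined (each member, role group and the mean of all members, by genotype, on the log2(normalized count + 1) scale). Chance flags about 1 in 20 such groups, or 4.6 of 92. All 4 were in *Rragc* +/+ livers. *Rb1cc1* was 8.56 in replicate 4, against 8.30 to 8.33 in the others. *Pik3r4* was 5.03 in replicate 4, against 5.76 to 5.88. *Atg14* was 6.42 in replicate 3, against 6.99 to 7.04. *Atg4d* was 6.60 in replicate 3, the liver with the fewest reads, against 7.28 to 7.38.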

How the results depend on the processing

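In all 20 alternatives 0 of 38 members passed the adjusted threshold, with a smallest adjusted p of 0.260. The count of members with an unadjusted p under 0.05, 0 in the reported fit, was 1 (*Atg4a*) without the trend and 0 to 7 when a liver was left out, with 7 without *Rragc* S74N/+ replicate 3, 2 (*Atg4a* and *Nbr1*) without *Rragc* +/+ replicate 3 and 1 (*Atg101*) without *Rragc* +/+ replicate 2. It stayed 0 in the other alternatives. Of all 11174 genes, 578 had an unadjusted limma p under 0.05 in the reported fit and 603 without the trend. That number was 1690 without *Rragc* S74N/+ replicate 3, 759 without *Rragc* +/+ replicate 3 and 604 without *Rragc* +/+ replicate 2. The count of all genes past the threshold, 1 in the reported fit, was 0 without the trend, with age as a numeric term and in 3-month-old mice alone, 3 with age as a factor, 10 in DESeq2 and 0 to 2 when a liver was left out. The mean difference over the members, 0.05, ran from 0.01 to 0.08 over the livers left out, and was -0.00921 with a mean of at least 50, which leaves 32 members. Another scaling moved the median of all genes by 0.0074 (TMM) and -0.0067 (upper quartile). Of the members, 27 kept the sign of their fold change in every alternative. The other 11 had a fold change of at most 0.151 in size, and 8 of them changed sign only when a liver was left out. With age as a numeric term, *Atg13* was 0.130 and *Atg5* -0.0454. With age as a factor, *Atg13* was 0.0794, *Atg5* -0.0145 and *Sqstm1* 0.0270. In 3-month-old mice alone, *Atg13* was 0.0421, *Atg5* -0.00690 and *Sqstm1* 0.0270, and in DESeq2 *Atg5* was -0.00194. Over the livers left out, the ranges were *Atg13* -0.184 to 0.0655, *Atg5* -0.130 to 0.131, *Sqstm1* -0.0889 to 0.0365, *Atg4b* -0.278 to 0.0333, *Atg12* -0.167 to 0.112, *Atg14* -0.0884 to 0.262, *Uvrag* -0.115 to 0.0687, *Ulk2* -0.0823 to 0.280, *Atg2a* -0.412 to 0.0234, *Gabarapl2* -0.0549 to 0.315, *Wipi2* -0.283 to 0.00335 and *Rragc* -0.230 to 0.0387. The causes were not tested. No paired analysis was possible because the labels give no replicate numbers. Low counts limit *Atg10*, *Atg4c* and *Atg4a*, whose standard errors were 0.37 to 0.51.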

Other observations

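The ratio of *Map1lc3b* to *Map1lc3a* normalized counts, 2 members whose fold changes had opposite signs, was 0.77, 1.03, 0.77 and 0.45 across *Rragc* +/+ and 1.11, 1.03, 0.80 and 2.00 across *Rragc* S74N/+ livers, in order of replicate. It averaged 0.76 ± 0.24 for *Rragc* +/+ and 1.24 ± 0.53 for *Rragc* S74N/+ (SD, n = 4 each), and the ranges overlapped. The pair was picked after its values were seen and got no test.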
